A study of Mus musculus with 10 samples.

Results

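Death ligands of the tumor necrosis factor (TNF) family, their receptors and the adaptor FADD were read in 10 B16 tumors, B16 being a transplantable melanoma line of C57BL/6 origin. The 10 genes were 5 ligands (Fasl, Tnfsf10, Tnf, Lta and Ltb) and 5 receptors or adaptors (Fas, Tnfrsf10b, Tnfrsf1a, Tnfrsf1b and Fadd). They were taken as every array probe set annotated to one of these symbols alone, which gave 16 probe sets, 8 for ligands and 8 for receptors and adaptor, of 34945 probe sets with a single gene. Where a gene had several probe sets, the brightest on average over the 10 tumors stood for it, which gave a table of 18193 genes that held these 10. The groups were 5 tumors labelled Bach2-deficient and 5 wild-type (WT) tumors, all on the C57BL/6 strain background. Bach2 encodes a transcriptional repressor of lymphocytes. The labels give no age, sex or treatment, leave unsaid what portion of Bach2 was lost and whether host, tumor cells or both lacked it, and do not tie each tumor to its own animal. Whole tumors were dissociated, so RNA of melanoma cells and of infiltrating cells was measured together.

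Cytotoxic lymphocytes carry Fas ligand (Fasl) and TRAIL (Tnfsf10). Fas ligand engages Fas, and TRAIL engages the mouse death receptor encoded by Tnfrsf10b. Both receptors recruit the adaptor FADD through a shared death domain, and FADD brings in caspase-8. TNF (Tnf) and lymphotoxin-α (Lta) bind TNF receptor 1 (Tnfrsf1a), which has a death domain, and TNF receptor 2 (Tnfrsf1b), which has none and is carried by many leukocytes. Lymphotoxin-β (Ltb) anchors lymphotoxin-α at the cell surface, and the complex binds the receptor encoded by Ltbr. In tumors these proteins are known both for killing of tumor cells and for removal of activated lymphocytes.

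Sequences upstream of the start site were taken from RefSeq (build GRCm38.p6) for 9 of the 10 genes, all but Tnfrsf10b. The 250 bases upstream are shown for Fasl and Fas, the ligand and receptor with the largest changes, for Lta and Ltb, and for Tnfrsf1b. Capitals mark matches, on either strand, to TGANTCA (the AP-1 element, which BACH factors also recognise), TGCTGAG (the left part of the Maf recognition element), the core of the interferon-stimulated response element (GAAA, 2 bases of any kind, GAAA), an NF-κB site (GGGA, any base, TTTCC) and TATAAA. The Fasl stretch is chr1:161788496-161788745 (minus strand), that of Fas is chr19:34290409-34290658 (plus strand), that of Lta is chr17:35205352-35205601 (minus strand), that of Ltb is chr17:35194257-35194506 (plus strand) and that of Tnfrsf1b is chr4:145246871-145247120 (minus strand). Each is written 5′ to 3′ on the strand of its gene.
Fasl: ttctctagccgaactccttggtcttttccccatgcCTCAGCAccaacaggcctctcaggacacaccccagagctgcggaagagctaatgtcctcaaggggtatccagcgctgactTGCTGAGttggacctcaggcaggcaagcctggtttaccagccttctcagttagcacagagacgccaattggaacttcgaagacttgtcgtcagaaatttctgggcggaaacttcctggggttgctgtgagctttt
Fas: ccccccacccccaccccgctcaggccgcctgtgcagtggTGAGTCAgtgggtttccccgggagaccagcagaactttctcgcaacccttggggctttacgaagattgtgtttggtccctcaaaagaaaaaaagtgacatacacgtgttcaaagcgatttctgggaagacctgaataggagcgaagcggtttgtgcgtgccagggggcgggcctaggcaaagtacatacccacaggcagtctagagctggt
Lta: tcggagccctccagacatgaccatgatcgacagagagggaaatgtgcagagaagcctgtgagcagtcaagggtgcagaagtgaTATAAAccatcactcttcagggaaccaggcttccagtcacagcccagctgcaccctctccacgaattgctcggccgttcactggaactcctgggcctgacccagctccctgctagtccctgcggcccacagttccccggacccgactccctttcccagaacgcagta
Ltb: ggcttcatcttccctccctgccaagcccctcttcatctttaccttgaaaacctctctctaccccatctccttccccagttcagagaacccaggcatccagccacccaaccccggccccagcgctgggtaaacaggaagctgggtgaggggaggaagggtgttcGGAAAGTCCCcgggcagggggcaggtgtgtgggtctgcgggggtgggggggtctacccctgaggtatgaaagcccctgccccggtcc
Tnfrsf1b: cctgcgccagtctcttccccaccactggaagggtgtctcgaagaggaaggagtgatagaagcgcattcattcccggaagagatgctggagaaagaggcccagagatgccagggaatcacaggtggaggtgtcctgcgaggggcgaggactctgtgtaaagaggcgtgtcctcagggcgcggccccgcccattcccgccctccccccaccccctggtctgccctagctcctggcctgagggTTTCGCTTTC

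TGANTCA was found in Fas alone among the 9, 205 bases upstream of its start, and in 6.75% of all 32851 promoter stretches of this length. TGCTGAG was found in Fasl alone, with 2 copies 129 and 209 bases upstream, and in 6.21% of all. The NF-κB letters were found in Ltb alone (0.356% of all), the interferon-response core in Tnfrsf1b alone (2.98%), and TATAAA in Tnf and Lta (12.4%). GGAAA, the core letters of an NFAT site, are not marked and stood in 7 of the 9 and in 55.6% of all, in Ltb inside the NF-κB match. These matches describe letters, not sites in use. Tnf and Lta are direct neighbours on chromosome 17, and a single microRNA gene lies between Tnf and Ltb in the RefSeq gene table. The other 7 genes lie on chromosomes 1, 3, 4, 6, 7, 14 and 19.

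The arrays and tumors differed in more than the labelled genotype. All array medians lay between 5.80 and 5.88 (log2). Bach2 averaged 5.89 ± 0.55 in Bach2-deficient and 6.96 ± 0.76 in WT tumors (log2, SD, n = 5 each), a change of -1.07 that did not pass (limma adjusted p = 0.0551). All 7 melanocyte markers were measured, with summed levels of 15.3 to 15.9 in Bach2-deficient and 15.7 to 15.9 in WT tumors (log2 of the sum). Poly-A spike controls, added to the RNA before labelling, averaged 10.03 ± 0.11 on Bach2-deficient and 12.1 ± 0.18 on WT arrays. Xist, the transcript of the inactive X chromosome, read 4.76 to 6.61 in 4 Bach2-deficient tumors and 11.9 in replicate 2, against 11.4 to 12.2 in WT tumors. The labels give no batch. The poly-A controls did not overlap between the groups, so by this design genotype and that difference cannot be told apart. Xist and genotype were separated by Bach2-deficient replicate 2 alone, and fits with Xist as a covariate, which rest on that tumor, are given beside the results.

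All 5 ligand genes rose in the Bach2-deficient tumors, and 3 of the 5 receptor and adaptor genes rose, namely Fas, Tnfrsf1a and Tnfrsf1b. None of the 10 fell. The median change was 2.42 over the ligands and 1.16 over the receptors and adaptor (log2, Bach2-deficient minus WT), against -0.06 over all genes. The threshold was a limma adjusted p under 0.05 over the 18193 genes, of which 16.3% rose and 12.4% fell. The 8 risen genes also had no overlap between the groups, with Bach2-deficient tumors higher, which held for 11.2% of all genes, while 7.67% had Bach2-deficient tumors lower without overlap. Of the 16 probe sets 12 rose and 0 fell, including all 8 of the ligands, where 14.1% of all probe sets rose and 10.1% fell. In whole tumors, more cells of a kind and more RNA per cell cannot be told apart.

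**Figure D1:**
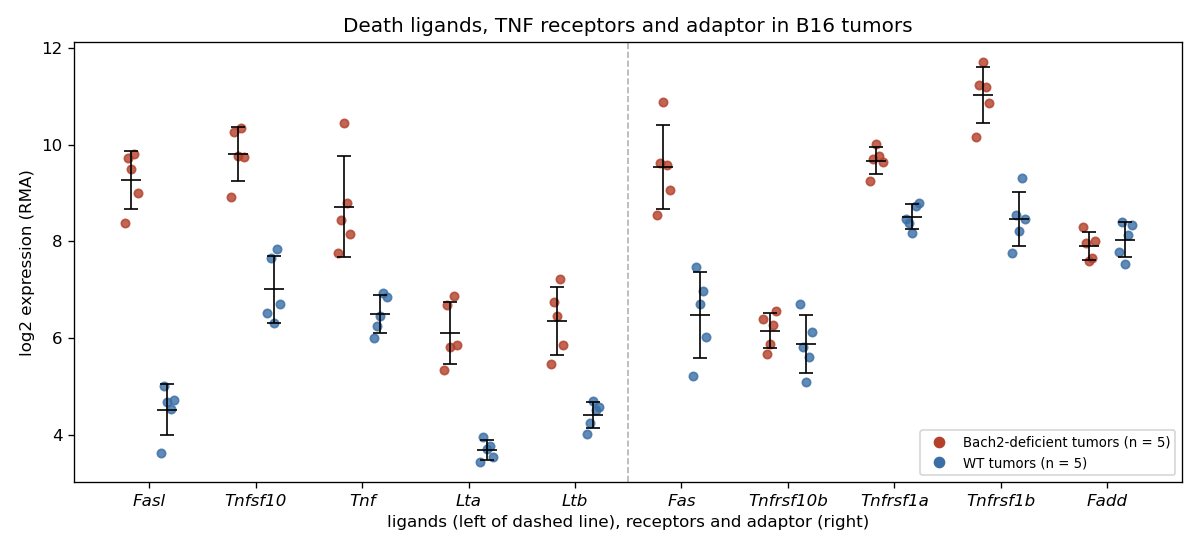
Log2 expression (RMA, y axis) of the 10 genes in each tumor, with Bach2-deficient tumors to the left of WT tumors for each gene, bars showing mean and SD (n = 5 each). The groups are apart for the 5 ligands, Fas, Tnfrsf1a and Tnfrsf1b, and they overlap for Tnfrsf10b and Fadd.

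Fasl, the ligand that triggers Fas on target cells, had the largest change of the 10 and the 15th largest rise of all 18193 genes. It read 8.37, 9.72, 9.49, 9.81 and 8.99 in Bach2-deficient replicates 1 to 5, against 3.64, 5.02, 4.68, 4.54 and 4.74 in WT replicates 1 to 5 (log2). The lowest Bach2-deficient tumor stood 3.35 above the highest WT tumor, a gap wider than the range within either group (1.43 in Bach2-deficient, 1.38 in WT). The change was 4.75 (SE 0.32, limma adjusted p = 5.57e-05). Its WT mean of 4.52 was below 4.98, a dim level set at the lowest 30% of genes by mean, and the size of the change is therefore not exact and not turned into a fold. The other Fasl probe set, 1418803_a_at, averaged 8.10 in Bach2-deficient and 4.30 in WT tumors, a change of 3.80 (adjusted p = 0.000167 over all probe sets).

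Tnfsf10, which encodes TRAIL, read 8.93, 10.27, 9.77, 10.34 and 9.75 in Bach2-deficient tumors, against 6.53, 7.66, 6.31, 7.84 and 6.70 in WT tumors. Every Bach2-deficient tumor was above every WT tumor, by at least 1.08. The rise was 2.80 (SE 0.36, limma adjusted p = 0.00058), or 6.97-fold. Its 3 probe sets all rose but differed in size, with changes of 2.80 for 1439680_at, 3.35 for 1459913_at and 1.48 for 1420412_at. The last was the dimmest of them, with means of 6.51 in Bach2-deficient and 5.03 in WT tumors.

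Tnf, the inflammatory cytokine that signals through both TNF receptors, was the most uneven ligand among the Bach2-deficient tumors. It read 7.76, 8.44, 10.46, 8.79 and 8.16 in Bach2-deficient tumors, against 6.00, 6.25, 6.46, 6.94 and 6.85 in WT tumors. Replicate 3 stood apart at the top, and the groups still did not overlap. The rise was 2.22 (SE 0.44, limma adjusted p = 0.00476), or 4.66-fold, and without Bach2-deficient replicate 3 it was 1.79 (adjusted p = 0.00231). Among the 8 risen genes Tnf alone lost its call in an alternative fit over all genes. With Xist as a covariate it changed by 2.19 (adjusted p = 0.121) and with the melanocyte marker mean as a covariate by 1.82 (adjusted p = 0.0845). Over its 20 alternative fits the adjusted p ran from 0.00229 to 0.121. With the Xist covariate the other 7 passed, among them Fasl (5.20), Tnfsf10 (3.10), Fas (3.39) and Tnfrsf1b (2.76). Fas and Tnfrsf1a were close to the threshold there, with adjusted p of 0.0489 and 0.0467 over all genes, and both missed it when adjusted over all probe sets (0.0587 and 0.0578).

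Lta, which encodes lymphotoxin-α, read 5.34, 6.69, 5.82, 6.87 and 5.86 in Bach2-deficient tumors, against 3.44, 3.96, 3.72, 3.78 and 3.56 in WT tumors. The WT tumors lay within 0.52 of each other and all below the Bach2-deficient ones. It rose by 2.42 (SE 0.27, limma adjusted p = 0.00034). Ltb, its membrane anchor, read 5.47, 6.76, 6.47, 7.23 and 5.85 in Bach2-deficient tumors, against 4.03, 4.25, 4.71, 4.53 and 4.58 in WT tumors. These groups were apart by 0.76. Ltb rose by 1.94 (SE 0.30, limma adjusted p = 0.00145). Both WT means, 3.69 for Lta and 4.42 for Ltb, lay under 4.98, so neither size is exact. With values under that level raised to it, the change of Lta was 1.13 and that of Ltb 1.37, and both still passed (adjusted p = 0.0208 and 0.0139; over all alternatives the adjusted p reached 0.0208 for Lta and 0.0341 for Ltb). With the melanocyte covariate Ltb changed by 1.21, and it passed there too (adjusted p = 0.00655).

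Fas, the death receptor for Fas ligand, changed most among the receptors. It read 8.55, 9.63, 10.89, 9.58 and 9.06 in Bach2-deficient tumors, against 5.22, 7.48, 6.71, 6.97 and 6.02 in WT tumors. It spread widely in both groups, over 2.33 in Bach2-deficient and 2.26 in WT tumors, without overlap. The rise was 3.06 (SE 0.49, limma adjusted p = 0.00162), or 8.34-fold, by the only Fas probe set.

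Tnfrsf1a, the TNF receptor with a death domain, had a smaller and tighter change. It read 9.25, 9.70, 10.01, 9.76 and 9.63 in Bach2-deficient tumors, against 8.47, 8.39, 8.18, 8.73 and 8.80 in WT tumors. The groups were 0.45 apart, and the rise was 1.16 (SE 0.16, limma adjusted p = 0.000867), or 2.23-fold. Tnfrsf1b, the leukocyte TNF receptor without a death domain, read 10.16, 11.23, 11.70, 11.19 and 10.86 in Bach2-deficient tumors, against 7.76, 8.54, 8.23, 9.31 and 8.47 in WT tumors. All Bach2-deficient tumors were higher, and the rise was 2.57 (SE 0.32, limma adjusted p = 0.000534), or 5.92-fold. Its dimmer probe set, 1448951_at, rose by 0.88 (adjusted p = 0.00425 over all probe sets), with means of 5.93 in Bach2-deficient and 5.05 in WT tumors, so the probe sets differ on the size of the rise.

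Tnfrsf10b, the mouse TRAIL death receptor, did not pass. It read 6.40, 5.68, 5.88, 6.28 and 6.56 in Bach2-deficient tumors, against 6.72, 5.82, 5.10, 5.62 and 6.14 in WT tumors. The Bach2-deficient values lay inside the WT range. The change was 0.28 with a 95% interval of -0.35 to 0.92 (limma adjusted p = 0.483), and that of its second probe set, 1422344_s_at, was 0.08. Fadd, the adaptor that links Fas and the TRAIL receptor to caspase-8, read 8.30, 7.98, 7.60, 7.67 and 8.004 in Bach2-deficient tumors, against 7.79, 8.40, 7.54, 8.14 and 8.34 in WT tumors. The Bach2-deficient values again lay inside the WT range. Its change was -0.13 with a 95% interval of -0.56 to 0.30 (limma adjusted p = 0.639), and its other probe set, 1416888_at, changed by 0.10. A change of 1 or more on the log2 scale lay outside both intervals.

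**Figure D2:**
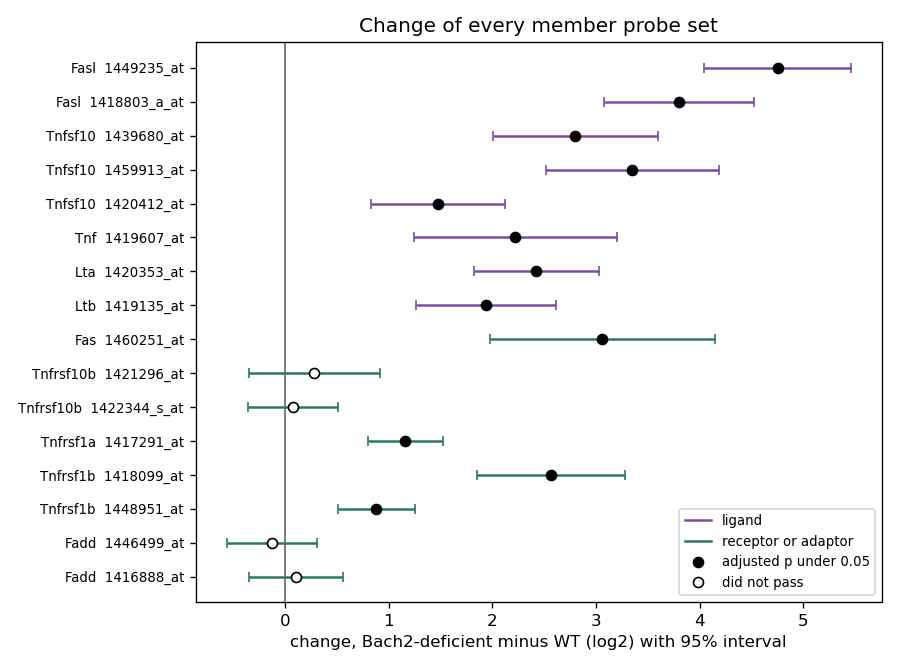
Change of each of the 16 probe sets (x axis, log2, Bach2-deficient minus WT) with its 95% interval, ligands in purple and receptors and adaptor in green. Filled points passed the adjusted p threshold over all probe sets, and the 4 open points are those of Tnfrsf10b and Fadd.

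Each ligand was then set against its receptor within each tumor, as a log2 difference, to ask whether the pair changed by unequal amounts. Of 6 such pairs, 4 differed between the groups by an exact permutation test (2-sided, Benjamini-Hochberg over the 6, smallest possible p 0.00794), and 2 of these 4 still passed with values under 4.98 raised to that level, an alternative added after the data were seen. Tnfsf10 minus Tnfrsf10b was 2.53, 4.59, 3.89, 4.06 and 3.19 in Bach2-deficient tumors, against -0.19, 1.85, 1.21, 2.23 and 0.56 in WT tumors. This pair changed by 2.52 (SE 0.56, exact p = 0.00794, adjusted 0.0159), without overlap. Fasl minus Fas changed by 1.69 (SE 0.37, exact p = 0.0159, adjusted 0.0238), and with the raised values by 1.23 (exact p = 0.0476, adjusted 0.0714), which did not pass. In that pair Bach2-deficient replicate 3, at -1.40, lay inside the WT range of -2.46 to -1.29, and the other 4 Bach2-deficient tumors lay above it.

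For TNF receptor 1 both ligands passed on the deposited values. Tnf minus Tnfrsf1a changed by 1.06 (SE 0.39) and Lta minus Tnfrsf1a by 1.26 (SE 0.30), each with an exact p of 0.00794 (adjusted 0.0159) and no overlap. The WT values of Lta all lay under 4.98, and with values raised to that level Lta minus Tnfrsf1a changed by -0.03 (exact p = 0.929), while Tnf minus Tnfrsf1a was as before. For TNF receptor 2 neither ligand passed on the deposited values. Tnf minus Tnfrsf1b changed by -0.34 with a 95% interval of -1.08 to 0.39 (exact p = 0.333), and Lta minus Tnfrsf1b by -0.14 with an interval of -0.93 to 0.65 (exact p = 0.667). With the raised values this difference was -1.43 (exact p = 0.0159, adjusted 0.0317). Both turned positive when the mean of the Tnfrsf1b probe sets stood for that gene, to 0.50 for Tnf (exact p = 0.119) and 0.70 for Lta (exact p = 0.0397), and without Bach2-deficient replicate 3 the difference with Tnf was -0.61 (exact p = 0.0397) and that with Lta 0.10. Probe sets differ in affinity and background, which can shrink or stretch the change of either partner.

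**Figure D3:**
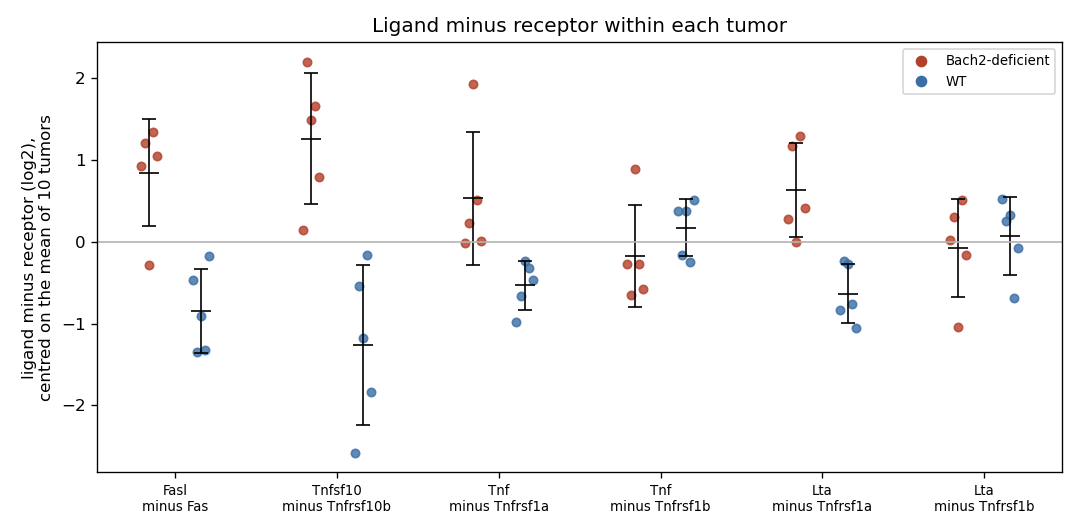
Ligand minus receptor (log2, y axis, each pair centred on its mean over the 10 tumors) in each tumor, Bach2-deficient to the left of WT, with mean and SD bars (n = 5 each). On the deposited values the groups are apart for Tnfsf10 minus Tnfrsf10b and for Tnf and Lta minus Tnfrsf1a (the last not with dim values raised to 4.98), while Fasl minus Fas has 1 Bach2-deficient tumor inside the WT range and the pairs with Tnfrsf1b overlap.

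Markers of infiltrating cells moved with these genes. The counts below stand beside 16.3% of all genes that rose and 12.4% that fell. All 9 measured T cell markers rose, with summed levels of 13.7 to 14.8 in Bach2-deficient and 10.4 to 12.3 in WT tumors (log2 of the sum), and all 5 NK cell markers rose, with 11.9 to 13.0 in Bach2-deficient and 8.65 to 10.7 in WT tumors. Of 8 macrophage and monocyte markers 7 rose, with 14.5 to 15.2 in Bach2-deficient and 13.4 to 14.2 in WT tumors, and of 6 dendritic cell markers 4 rose. None of 5 B cell markers and 1 of 4 neutrophil markers rose. Of 7 melanocyte markers 2 fell and 0 rose, of 6 fibroblast markers 3 fell, of 4 red cell markers 3 fell, and of 6 endothelial markers 1 rose and 1 fell. The part of these cells in the rise of the ligands and receptors was not tested, but the changes can be set beside those of the markers.

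The T cell marker mean was 10.3 ± 0.51 in Bach2-deficient and 7.24 ± 0.61 in WT tumors, a difference of 3.06. Its 9 markers rose unequally, from 1.69 for Cd4 to 4.71 for Cd8b1, the latter close to the 4.75 of Fasl. With the mean subtracted, 2 of these markers themselves rose and 2 fell (limma). With this mean subtracted in each tumor, Fasl was the single member that remained higher, at -1.24 to -0.78 in Bach2-deficient and -2.97 to -2.30 in WT tumors. That change was 1.69 (limma adjusted p = 9.01e-05, exact permutation adjusted p = 0.00828 over all genes). On this scale 0.187% of all genes rose by limma and 0.22% by the exact test. Because 97.9% of all genes were lower, adjustment raised the smallest exact p only from 0.00794 to 0.00828. An adjusted p on this scale therefore corrects little for the number of genes. Set against Cd8a alone, which rose by 4.23, Fasl changed by 0.53 and did not pass (limma adjusted p = 0.355), the lone alternative of 18 in which it missed. Tnfsf10 changed by -0.26, Fas by 0.000165, Tnf by -0.84, Lta by -0.64 and Tnfrsf1b by -0.49, and none of these passed in the limma fit. Tnf passed without Bach2-deficient replicate 3 (-1.28, adjusted p = 0.00804) or WT replicate 2 (-1.06, adjusted p = 0.0151). Lta did pass by the exact test (adjusted p = 0.00828), and in the limma fit with values under 4.98 raised to it (-1.84, adjusted p = 2.63e-06). Ltb (-1.12), Tnfrsf1a (-1.90), Tnfrsf10b (-2.78) and Fadd (-3.19) fell on this scale, as did 97.9% of all genes.

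Against the macrophage marker mean, which was 10.9 ± 0.36 in Bach2-deficient and 9.37 ± 0.45 in WT tumors, 5 members were higher by the exact permutation test over all genes, where 1.93% of genes were. These were Fasl (3.18), Fas (1.49), Tnfsf10 (1.23), Tnfrsf1b (0.99) and Lta (0.85), with adjusted p from 0.0105 to 0.0187. Because 89.2% of all genes were lower, adjustment raised the smallest exact p only from 0.00794 to 0.0105. It thus corrects little for the number of genes. With values under 4.98 raised to that level Lta changed by -0.39 (adjusted p = 0.263), so its direction rests on values under the dim level, and the other 4 still passed. Tnf (0.65, adjusted p = 0.0519) and Ltb (0.37, adjusted p = 0.247) did not pass, and with the raised values Tnf did (0.70, adjusted p = 0.0348) and Ltb changed by -0.15. Tnfrsf1a (-0.41), Tnfrsf10b (-1.29) and Fadd (-1.70) were lower on this scale, as were 89.2% of all genes. The 8 macrophage and monocyte markers changed unequally, from 0.36 for Lyz2 to 2.68 for Itgam. Fasl, Fas and Tnfsf10 rose by more than any of these markers. Itgam rose by more than Tnfrsf1b (2.57) and Lta (2.42), so the excess of these 2 members depends on which markers are averaged. This comparison was chosen after the data were seen.

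The members also varied among tumors of the same genotype. Bach2-deficient replicate 1 was the lowest of its group for all 8 risen genes. The highest was replicate 4 for Fasl, Tnfsf10, Lta and Ltb, and replicate 3 for Tnf, Fas, Tnfrsf1a and Tnfrsf1b. The T cell marker mean was lowest in replicate 1 and highest in replicate 4 (deviations from the group mean of -0.69 and 0.62). The NK cell marker mean was lowest in replicate 1 and highest in replicate 2 (-0.91 and 0.62), ahead of replicate 4 (0.45). The macrophage marker mean was lowest in replicate 1 (-0.64) and highest in replicate 3 (0.27), with 0.16 in replicate 2 and 0.14 in replicate 5. The melanocyte marker mean was highest in replicate 1 (0.44). Tnfrsf10b and Fadd did otherwise. Tnfrsf10b was lowest in Bach2-deficient replicate 2 and highest in replicate 5, and Fadd was lowest in replicate 3 and highest in replicate 1. Among WT tumors replicate 1 was the lowest for 6 of the 8 genes, all but Tnfsf10 and Tnfrsf1a, and it had the lowest T cell and macrophage marker means too, while the highest WT tumor was replicate 2, 3, 4 or 5, depending on the gene. Tnf and Fas departed most from their group mean in Bach2-deficient replicate 3, by 1.73 and 1.34. Without Bach2-deficient replicate 1, and equally without any other single tumor, 8 members rose and 0 fell.

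**Figure D4:**
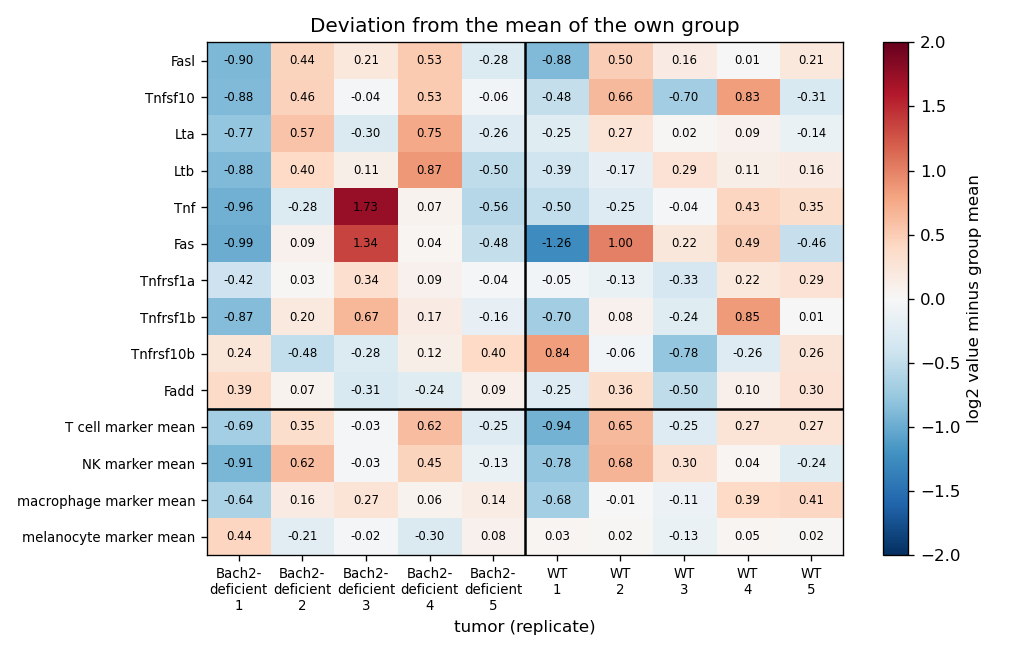
Log2 value of each gene and marker mean in each tumor minus the mean of its own group, Bach2-deficient tumors on the left and WT tumors on the right, with red above and blue below the group mean. Bach2-deficient replicate 1 is blue for the 8 risen genes, and Tnf and Fas are at their reddest in Bach2-deficient replicate 3.

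Other genes of the family rose in part, where 16.3% of all genes rose and 12.4% fell. Of 9 other TNF superfamily ligands measured, 5 rose and 0 fell, with a median change of 0.62. By their brightest probe sets the largest were Tnfsf11 (2.54), the ligand of RANK made by activated T cells, and Tnfsf14 (2.27), a ligand of both the lymphotoxin-β receptor and HVEM. As the average of their probe sets they rose by 1.10 and 1.67, so their order turned. Of 23 other TNF receptor superfamily genes 10 rose and 2 fell, with a median of 0.43. They were led by Cd27 (2.80) and Tnfrsf18 (2.48), costimulatory receptors of T cells, while Eda2r, an ectodysplasin receptor, fell by 1.36. Ltbr, the receptor of the Lta and Ltb complex, averaged 7.96 ± 0.0755 in Bach2-deficient and 8.28 ± 0.176 in WT tumors and fell by 0.32 (SE 0.10, limma adjusted p = 0.0382). That call was lost when WT replicate 1, 2 or 5 or Bach2-deficient replicate 2, 3, 4 or 5 was left out (changes of -0.35 to -0.27, adjusted p up to 0.0873).

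Below the death receptors, 3 of 8 genes rose and 0 fell (16.3% and 12.4% of all genes), with a median of 0.59. Casp8, the initiator caspase recruited by FADD, rose by 1.22 (SE 0.17, limma adjusted p = 0.00081), and Daxx, a Fas-binding protein and transcriptional corepressor, rose by 1.89. Cflar, the inhibitor of caspase-8 known as cFLIP, averaged 11.8 ± 0.20 in Bach2-deficient and 11.5 ± 0.10 in WT tumors, and its change of 0.28 did not pass (limma adjusted p = 0.0807). It passed when its probe sets were averaged (0.61, adjusted p = 0.00487), with array weights (0.32, adjusted p = 0.0349) and without Bach2-deficient replicate 1 (0.36, adjusted p = 0.0198).

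Genes of the TNF receptor 1 complex and of NF-κB, the transcription factor it activates, also rose in part. Without covariates 16.3% of all genes rose and 12.4% fell. Of 15 complex genes 12 rose and 0 fell, with a median of 0.66. The adaptor gene Traf5 rose by 2.36, with a WT mean of 4.67 that lay under the dim level, and Birc3, a ubiquitin ligase gene of the complex, by 2.31. As the average of their probe sets these rises were 1.25 and 2.08. Tnfaip3, which encodes the inhibitor A20, rose by 1.91. Of 9 genes listed for NF-κB (factors, inhibitors, the adaptor gene Traf1 and the kinase gene Map3k14) 8 rose, with a median of 1.47. They were led by the inhibitor gene Nfkbie (2.39) and by Traf1 (2.17). Of 8 genes of TNF shedding and mRNA decay 4 rose and 1 fell, with a median of 0.53. Rhbdf2, needed in mouse macrophages for release of TNF by the sheddase ADAM17, rose by 1.85, Zfp36, whose protein speeds decay of Tnf mRNA, by 1.69, and Timp3, an inhibitor of ADAM17, fell by 1.03. Of 11 genes known to respond to TNF in endothelium and other cells 4 rose and 0 fell, with a median of 0.75, among them Icam1 (2.42), an adhesion molecule gene, and Lif (1.98, or 1.00 as the average of its probe sets), a cytokine gene. With the Xist or the melanocyte covariate fewer genes rose in 6 of these 7 lists, the exception being the genes below the death receptors, where 3 rose under each. Over all genes 4.52% rose and 1.71% fell with the Xist covariate, and 5.61% rose and 2.62% fell with the melanocyte covariate. In the NF-κB list 1 gene rose with the Xist covariate and 4 with the melanocyte covariate, and in the TNF receptor 1 complex list 5 and 6 rose. Of the genes named here from the lists, Nfkbie (adjusted p = 0.0691), Tnfaip3 (0.0762), Zfp36 (0.0858), Lif (0.250) and Ltbr (0.311) did not pass with the Xist covariate. Eda2r (0.0828), Timp3 (0.137), Lif (0.160) and Ltbr (0.184) did not pass with the melanocyte covariate, where the change of Timp3 was -0.66. Among the 10 members 7 rose under either covariate, Tnf being the one lost.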

How the data were processed

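RNA of 10 whole B16 tumors (5 Bach2-deficient, 5 WT) was hybridised to 1-colour Affymetrix 3′ expression arrays. The deposited table holds log2 values made by the authors, with RMA and Partek named per the submitters' processing notes. No version or genome build for them is given in the sources used here. The table had 45101 probe sets, of which 64 were controls. The platform annotation gave 1 symbol for 34945, several for 932 and none for 9160, and only the first kind was used. Each gene was its probe set with the highest mean over all arrays. Precision is limited by the number of arrays.

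Each change came from a 2-sided fit with genotype as the single factor over all 10 arrays (limma 3.58.1, lmFit and eBayes, R 4.3.3). Benjamini-Hochberg adjustment ran over all 18193 genes, or all 34945 probe sets for single probe sets. Groups came from the sample titles. Since separate animals are not stated, p-values reflect only sample-to-sample spread, which may be technical. The fit was tested on simulated data with the spread of the 18193 genes in the same comparison. It called 74% of genes changed by 1 and 96% of those changed by 2 on the log2 scale. Of its calls 6.59% were false. Only 200 genes were changed there, far fewer than were called in the tumors (2962 rose, 2264 fell), so these rates need not hold for the tumors. Ligand minus receptor differences used an exact permutation test over all splits of the 10 tumors. After subtraction of a marker mean, limma gave every gene the same SE (0.43), so an exact permutation test with adjustment over all genes was added after the data were seen, as were the macrophage comparison and the dim-level floor in the pair and marker comparisons.

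The members, gene lists and tests were chosen with earlier results of these data known. Named genes were all members, the 2 largest called rises and falls of each list, and Ltbr, Casp8, Cflar, Tnfaip3 and Ripk1. Bach2, Xist and Eif2s3y served as checks. Ripk1 is not analysed here, and neither are 18 of the other listed genes. Alternatives were each array left out, a replicate block, the mean of a gene's probe sets, a dim-gene filter and floor, repeated quantile normalization, median centring, trended robust moderation, array weights, and Xist or the melanocyte marker mean as covariate. Upstream sequences are RefSeq's (GRCm38.p6), scanned with Python 3.11.15. One further motif that was scanned is not reported here.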

Additional observations from a re-analysis of the deposited data

How the results depend on the processing

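The count of 8 risen and 0 fallen members stayed at 7 or 8 risen and 0 fallen in every alternative, and with any single tumor left out 8 rose. With the dim-gene filter Lta was not tested. That filter used the mean over all 10 tumors. Fasl and Ltb, with WT means of 4.52 and 4.42, passed it only through their Bach2-deficient values. Their calls under the filter therefore add no support. The counts of risen probe sets (12) were 8 with the Xist covariate and 9 with the melanocyte covariate. Tnf did not pass with the Xist covariate (2.19) or the melanocyte covariate (1.82). Changes that never passed turned sign: Tnfrsf10b to -0.306 (1421296_at) and 1422344_s_at to -0.00774 with the Xist covariate, and Fadd (1446499_at) to 0.149 with the melanocyte covariate. With 1 tumor left out 1422344_s_at ran from -0.041 to 0.225 and 1416888_at from -0.038 to 0.248. The causes were not tested.

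Pairing of same-numbered tumors was weak and not settled. The correlation of their deviations ran from 0.00619 to 0.323, and 2 of 5 pairs were above 0.1. With the replicate block all 8 members still rose. The blocked pair test is an exact sign-flip test that cannot go below p = 0.0625. It gave that value for Fasl minus Fas (1.69), Tnfsf10 minus Tnfrsf10b (2.52), Tnf minus Tnfrsf1a (1.06) and Lta minus Tnfrsf1a (1.26). As the mean of probe sets, Tnf minus Tnfrsf1b was 0.498 and Lta minus Tnfrsf1b 0.70. With values under the dim level raised to it, Lta minus Tnfrsf1a was -0.0276 and Lta minus Tnfrsf1b -1.43, while relative to the macrophage marker mean Tnf (0.70) passed and Lta (-0.39) and Ltb (-0.15) turned sign, and relative to the T cell marker mean Lta (-1.84) passed. With 1 tumor left out Tnf and Lta minus Tnfrsf1b ran from -0.61 to -0.22 and from -0.33 to 0.10.

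Relative to the T cell marker mean, the replicate block let Tnf (-0.84) and Lta (-0.64) pass, the mean of probe sets Tnfrsf1b (-1.12), repeated quantile normalization Tnf (-0.87), the mean without Cd4 Tnf (-1.01), and the exact test Lta (-0.64). Fas was -0.0248 after quantile normalization and -0.17 without Cd4. Against Cd8a alone the changes were 0.53 for Fasl, -1.43 for Tnfsf10, -2.01 for Tnf, -1.80 for Lta, -1.17 for Fas and -1.66 for Tnfrsf1b. With 1 tumor left out Fas ran from -0.34 to 0.14 and Tnf from -1.28 to -0.68.

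Among the lists, the Xist covariate left 3 other ligands, 5 other receptors, 5 complex, 1 NF-κB, 1 shedding and decay and 1 TNF-responsive gene risen and 1 receptor fallen. The melanocyte covariate left 6 other receptors, 6 complex, 4 NF-κB, 2 shedding and decay and 1 TNF-responsive gene risen and 0 receptors and 0 shedding genes fallen. Genes below the death receptors that rose numbered 5 as the mean of probe sets or with array weights. Fallen receptors numbered 1 with the replicate block or trended moderation, and fallen shedding genes 2 with the block or array weights. With 1 tumor left out, fallen receptors and fallen shedding genes both ran from 1 to 2. Over all genes, 823 rose and 311 fell with the Xist covariate and 1021 and 476 with the melanocyte covariate, against 2962 and 2264. Without Bach2-deficient replicate 2 there were 1388 falls over all genes, and without Bach2-deficient replicate 4 there were 1447.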

Other observations

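None of the 32 sets of 5 tumors (16 probe sets in each genotype) held a tumor whose gap to its nearest neighbour passed the critical share of the range, 0.71, a criterion that chance meets in about 1 in 20 sets. The largest share was 0.709, for Tnfsf10 probe set 1459913_at in WT replicate 1, at 4.63 against 5.76 to 6.23 in the other WT tumors.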
